A study of Mus musculus with 20 samples.

Results

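Mature natural killer (NK) cells that lacked Ets1 were compared with NK cells that had it, and the differences rest on 4 of the 20 arrays of the series. The Ets1-deficient group holds 2 arrays of mature NK cells from Rag2-deficient, Ets1-deficient mice, and the Ets1-present group holds 2 arrays of mature NK cells from mice deficient for Rag2 alone (genotypes labelled Rag2-- Ets1-- and Rag2-- Ets1++). Both groups came from bone marrow of the 129 strain at an age of 8 to 14 weeks, so the controls carry the Rag2 deficiency too. Without Rag2, antigen receptor genes are not rearranged and neither group of mice makes mature B or T cells. The labels do not name the Ets1 allele, do not say how many animals gave each sample and do not say that the replicates came from separate animals. Cells were sorted straight into lysis buffer, and their RNA was amplified, labelled and hybridised to Affymetrix mouse arrays. The other 16 arrays are of wild-type C57bl/6 marrow populations, of which the granulocyte-monocyte progenitors (GMP, 3 arrays) are used here for myeloid levels.

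Ets1 is the founding member of the ETS family of transcription factors, which bind DNA around a GGAA core, and NK cells are among the lymphocytes that express it strongly. NK cells kill target cells with perforin and granzymes stored in cytotoxic granules, and the balance of activating and inhibitory receptors on their surface sets whether they do so. They depend on IL-15 and related cytokines for their survival, and they release chemokines and interferon gamma. Neutrophils of the marrow carry a different set of granule proteins: the primary granule enzymes are transcribed early, at the promyelocyte stage, and the secondary and tertiary granule proteins later.

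Values are log2 of the deposited intensity, so a difference of 1 is a 2-fold difference in intensity, and every difference is Ets1-deficient minus Ets1-present with its standard error (SE) from limma. A probe set is a group of short probes read together as 1 measurement of a transcript, and a gene can have several. A probe set was called at an adjusted p below 0.05. Across all probe sets the 2 Ets1-present arrays correlated at 0.9928, the 2 Ets1-deficient arrays at 0.9822, and arrays of different genotype at 0.9725 to 0.9736. Ets1-deficient replicate 2 stood apart in its signal at the 3' end of control transcripts. Its actin signal at the 3' end exceeded that at the 5' end by 4.07, against 2.86 on Ets1-deficient replicate 1 and 2.90 and 2.76 on the Ets1-present arrays. The RNA was amplified, so RNA quality and amplification cannot be told apart in this excess. The root-mean-square SD per probe set was 0.307 in Ets1-deficient and 0.196 in Ets1-present NK cells (n = 2 each). In sorted bulk samples, fewer cells of a type and less RNA per cell cannot be told apart.

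The NK label was checked on 12 NK marker genes. Klrd1, a chain of the CD94/NKG2 receptors, read 12.86 and 12.88 on the Ets1-deficient arrays, against 13.04 and 13.02 on the Ets1-present arrays. Gzma, a granzyme, read 13.67 and 13.51 in Ets1-deficient cells, against 13.10 and 13.18 in Ets1-present cells. Eomes and Tbx21, transcription factors of mature NK cells, exceeded 9 on each NK array on each of their probe sets. Nkg7, a granule protein, and Klre1 and Klrk1, lectin-like receptors, differed by -0.12, -0.54 and -0.54 and were not called, and Itga2, the integrin chain CD49b, was dim on all 4 arrays (4.54 to 4.73). The mean over the 16 marker probe sets was 9.21 and 9.15 in Ets1-deficient and 9.38 and 9.49 in Ets1-present cells, against 3.99 in GMP. Of the 12 genes, 1 was called, lower, on 1 of its 2 probe sets: Cd244a, the SLAM-family receptor 2B4, at -1.41 ± 0.36 (adjusted p = 0.0399), while its brighter probe set stood at -0.36 ± 0.43. That call was lost without Ets1-deficient replicate 2 (-0.69) and without either Ets1-present array.

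Ets1 itself was lower on 1 of its 4 probe sets and was still read on all of them. On probe set 1422027_a_at it was 6.53 and 7.22 in Ets1-deficient cells, against 8.34 and 8.51 in Ets1-present cells, a difference of -1.55 ± 0.31 (adjusted p = 0.00859). On 1422028_a_at it was 8.46 and 8.46 in Ets1-deficient cells, against 9.11 and 9.67 in Ets1-present cells (-0.93 ± 0.29, adjusted p = 0.118). The brightest probe sets, 1452163_at and 1426725_s_at, differed by -0.81 ± 0.54 and -0.33 ± 0.42 and were not called. The Ets1-deficient arrays lay below the Ets1-present arrays on each of the 4 probe sets, while 47.7% of all probe sets had no overlap in either direction. Where these probes lie relative to the deleted part of the gene was not analysed here, so the remaining signal does not check the genotype labels. The call on 1422027_a_at was lost in 3 of the 4 fits that left out 1 NK array: Ets1-deficient replicate 1 (-1.20) and either Ets1-present array (-1.63 and -1.47).

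In all, 449 of 45037 probe sets were higher (0.997%) and 678 were lower (1.51%) in Ets1-deficient NK cells. An unadjusted p below 0.05 was reached by 4854 probe sets (10.8%), and 21484 (47.7%) had no overlap between the genotypes. The median difference over all probe sets was 0.006, and the median size of the called differences was 1.47. A size of at least 2 log2 units was reached by 109 probe sets called higher and 106 called lower. Of the called probe sets, 894 name 1 gene and 233 name none or several. These calls fell on 338 genes with a probe set called higher and none lower (1.86% of 18193 genes) and on 462 genes with a probe set called lower and none higher (2.54%).

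All probe sets of a gene seldom agreed on a call. Of 9010 genes with at least 2 probe sets, 13 had every probe set called higher (0.144%) and 16 had every probe set called lower (0.178%). A further 236 genes had some probe sets called higher and none lower, and 313 had some called lower and none higher. Among the 236, the uncalled probe sets were all on the positive side in 116 genes and some were negative in 120. Among the 313, the uncalled probe sets were all negative in 155 genes and some were positive in 158. Of the uncalled probe sets of these partly called genes, 877 of 1239 (70.8%) had a mean under 6 over the 4 NK arrays, close to the 70% of all 34945 probe sets with 1 gene. A limit at that mean, chosen after the data were seen, left 46 genes with at least 2 brighter probe sets and a call among them. Of these, 3 had every brighter probe set called higher, 9 had every one called lower, 28 had the other probe sets on the same side and 6 had some on the opposite side. For scale, 839 of the 2319 genes with at least 2 bright probe sets and no call also had probe sets on both sides of 0.

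Genes lower on every probe set included a growth factor, signalling adaptors and lipid and glycan enzymes. Vegfc, the growth factor of lymphatic vessels, showed the largest fall: its 3 probe sets differed by -5.19 ± 0.51, -3.15 ± 0.36 and -3.17 ± 0.50. On the first it read 3.29 and 2.66 in Ets1-deficient cells, against 8.23 and 8.10 in Ets1-present cells, so it was near the bottom of the scale in both Ets1-deficient arrays. Btbd11, which encodes a protein with a BTB domain, read 5.95 and 6.05 in Ets1-deficient cells, against 9.85 and 9.81 in Ets1-present cells on its brightest probe set (-3.83 ± 0.40, adjusted p = 8.61e-06). Its other 2 probe sets differed by -4.03 and -1.64. Pde5a, the phosphodiesterase that degrades cyclic GMP, was lower by a similar amount on all 3 of its probe sets (-2.27, -2.87 and -2.48). Traf1, an adaptor of TNF receptor signalling, read 6.23 and 7.20 in Ets1-deficient cells, against 9.41 and 9.12 in Ets1-present cells (-2.55 ± 0.36, adjusted p = 0.000273), and its other probe set gave -1.99 ± 0.25. Arap3, a GTPase-activating protein, was lower on 3 probe sets (-2.59, -2.19 and -1.45). On each probe set of these genes the genotypes did not overlap, as held for every called probe set and for 47.7% of all probe sets. Without Ets1-present replicate 2 the smallest differences of Btbd11 (-1.51) and Arap3 (-1.17) lost their calls.

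The other fully called genes of that direction had smaller differences. Klrb1f, a lectin-like receptor of the NKR-P1 family, read 7.15 and 6.77 in Ets1-deficient cells, against 9.29 and 9.34 in Ets1-present cells on its brighter probe set (-2.35 ± 0.62, adjusted p = 0.0484), with -1.68 ± 0.29 on the other. St8sia4, which builds polysialic acid, was lower by -1.33 on a bright probe set and by -2.26 on a dim one. Crim1, a transmembrane protein that binds BMP ligands, gave -1.73 and -1.97, Adgrl4, an adhesion receptor, gave -1.62 and -1.63, and Dgat1, the enzyme of the last step of triglyceride synthesis, gave -1.52 and -1.69. Beyond the named 10, the count of 16 holds Orai1, Septin4, Pbxip1, Rtn4rl1, Fes and Ccr1. Orai1, the pore of the store-operated calcium channel, gave -1.30 and -1.73, and the tyrosine kinase Fes gave -1.17 and -1.20. The brighter probe set of Klrb1f lost its call without any 1 of the 4 arrays (-2.54 to -2.16), as did the bright probe set of St8sia4 (-1.34 to -1.31). Both probe sets of Adgrl4 (-1.70 to -1.54 and -2.08 to -1.17) and the probe set of Crim1 at -1.97 (-2.12 to -1.82) lost theirs in 3 of these 4 fits, and each probe set of Dgat1 in 1. Each probe set of Orai1, Fes, Pbxip1 and Rtn4rl1 lost its call in at least 3 of them, and each of Ccr1 and Septin4 in at least 1.

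Genes higher on every probe set were mostly dim in Ets1-present cells. Khdc1b, a KH-domain gene, read 6.64 and 7.75 in Ets1-deficient cells, against 2.52 and 2.10 in Ets1-present cells (4.89 ± 0.25, adjusted p = 6.29e-10), and its second probe set gave 2.49 ± 0.31. Its neighbour in sequence Khdc1a, with 1 probe set, gave 3.51 ± 0.18, and reads on such near-identical genes are uncertain. Ppargc1a, which encodes PGC-1alpha, a coactivator of mitochondrial biogenesis, was higher on all 5 of its probe sets, by 1.31 to 3.62. On the one that differed most it read 4.89 and 6.84 in Ets1-deficient cells, against 2.31 and 2.18 in Ets1-present cells. Hacd1, an enzyme of very long chain fatty acid synthesis, was bright: 9.58 and 9.29 in Ets1-deficient cells, against 7.10 and 6.94 in Ets1-present cells (2.41 ± 0.38), with 2.61 ± 0.41 on the other probe set. Ociad2 gave 2.24 ± 0.32 and 2.12 ± 0.37, Cd163l1, a scavenger receptor family member, gave 3.34 and 1.60, and Pik3r6, a regulatory subunit of phosphoinositide 3-kinase gamma, gave 2.01 and 1.83. Clip3, Frmd5, Zfp975 and Ankrd29 complete the named 10, with differences of 1.13 to 2.99. Of these 4, the weaker probe set of Clip3 lost its call in 3 of the fits without 1 array (1.24 to 1.72) and the stronger in 1 (1.72 to 2.21). A probe set of Zfp975 lost its call in 2 (1.03 to 1.43) and one of Ankrd29 in 1 (0.95 to 1.31). Among the genes before them, the weaker probe set of Cd163l1 lost its call in 2 (1.42 to 1.78) and that of Pik3r6 in 1 (1.73 to 1.94). Ets1-deficient replicate 2 gave the higher reading of Ppargc1a on 4 of 5 probe sets and of Khdc1b on both.

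**Figure D1:**
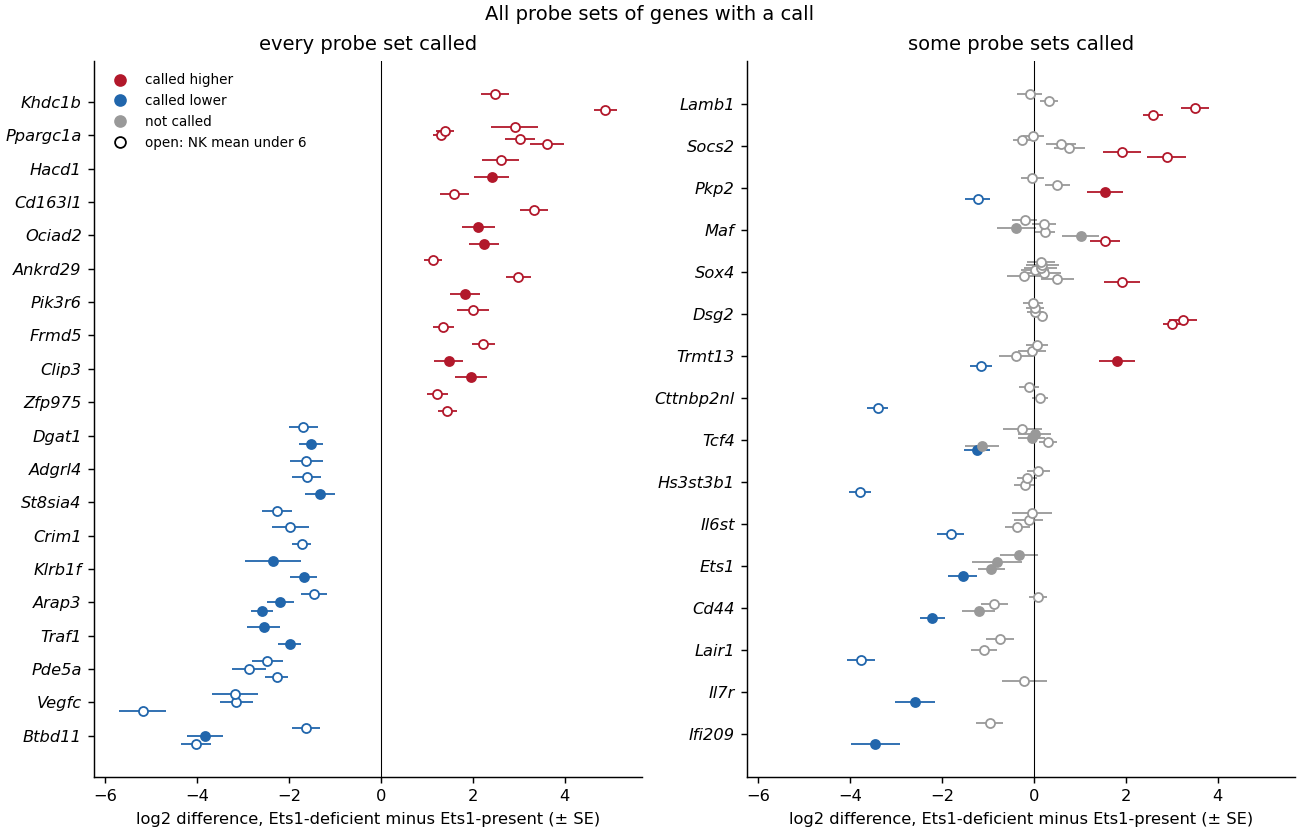
Log2 difference, Ets1-deficient minus Ets1-present NK cells, with SE as bars, for each probe set (point) of a gene (row); filled points are probe sets with an NK mean of at least 6, red and blue mark calls. Left, the 20 named genes with every probe set called, such as Vegfc (-5.19 to -3.15) and Khdc1b (2.49 and 4.89); right, genes with some probe sets called, where the uncalled one of Hs3st3b1 nearest to 0 stands at 0.09 and that of Ifi209 at -0.96, and Pkp2 and Trmt13 have calls on both sides.

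For other genes the answer depended on which probe set was read. Hs3st3b1, a heparan sulfate sulfotransferase, read 2.59 and 3.08 in Ets1-deficient cells, against 6.54 and 6.70 in Ets1-present cells on 1 probe set (-3.78 ± 0.24), while its other 3, all with levels of 4.23 or less, lay between -0.21 and 0.09. Ifi209, an interferon-inducible gene, was lower by -3.45 ± 0.54 on 1 probe set and by -0.96 ± 0.29 on the other, which was not called. Dsg2, a desmosomal cadherin, was higher by 3.01 and 3.25 on 2 probe sets, while 4 others lay between -0.02 and 0.17. Lamb1, a laminin chain, was higher by 2.60 and 3.51 on 2 of 4, and Cttnbp2nl was lower by -3.40 on 1 of 3. In these 5 genes the probe set that was brightest over the 20 arrays was not the one called.

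Only Pkp2 and Trmt13 had calls in both directions. Pkp2, which encodes the desmosomal protein plakophilin 2, read 6.91 and 7.37 in Ets1-deficient cells, against 5.71 and 5.46 in Ets1-present cells on 1 probe set (1.55 ± 0.40). Another Pkp2 probe set read 2.88 and 3.19 in Ets1-deficient cells, against 4.15 and 4.38 in Ets1-present cells (-1.23 ± 0.27), and the remaining 2 were not called. Trmt13, a tRNA methyltransferase, was higher by 1.81 ± 0.40 on its brightest probe set and lower by -1.16 ± 0.24 on a dimmer one, with 3 others not called. Each of these 4 calls was lost without at least 3 of the 4 arrays in turn, at differences of 1.32 to 1.78 and -1.38 to -1.07 for Pkp2, and of 1.64 to 1.97 and -1.44 to -0.88 for Trmt13.

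Chemokine and cytokine genes of NK cells fell or were not called. Of 14 measured, 3 were lower and none was higher. Counts of this list and of those that follow stand beside 1.86% of all genes called higher and 2.54% called lower. Ltb, which encodes lymphotoxin beta, read 5.67 and 5.35 in Ets1-deficient cells, against 10.24 and 10.20 in Ets1-present cells, a difference of -4.71 ± 0.38 (adjusted p = 3.74e-07). Xcl1, the chemokine lymphotactin, read 6.62 and 5.85 in Ets1-deficient cells, against 8.62 and 8.85 in Ets1-present cells (-2.50 ± 0.27, adjusted p = 1.06e-05). Ccl4, the chemokine MIP-1beta, averaged 5.38 ± 0.24 in Ets1-deficient cells and 6.94 ± 0.08 in Ets1-present cells (SD, n = 2 each; difference -1.56 ± 0.36, limma adjusted p = 0.0233), and lost its call without any 1 of the 4 arrays (-1.73 to -1.39). Ifng, with 6.11 and 6.15 in Ets1-deficient and 6.24 and 5.99 in Ets1-present cells, and Ccl5, with 12.47 and 12.79 against 12.78 and 12.80, were not called. The list's median difference was -0.33.

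Of 19 activating receptors and adaptors, 6 were lower, 13 were not called and none was higher, and the median difference of the list was -0.45. The 6 were Klrb1f, Crtam, Slamf6, Cd244a, Fcgr3 and Cd160. The count was smaller in each fit without 1 NK array. Every such fit leaves 1 array in a genotype and called fewer probe sets in both directions. A lost call therefore does not show that a difference rested on the array left out. Crtam, a receptor for the adhesion molecule nectin-like 2, read 6.76 and 6.56 in Ets1-deficient cells, against 8.92 and 8.73 in Ets1-present cells (-2.16 ± 0.42, adjusted p = 0.00612). Slamf6 gave -1.58 ± 0.36 on 1 of 3 probe sets, with -0.42 and 0.13 on the others. The call of Crtam was lost when Ets1-deficient replicate 2 (-2.06) or Ets1-present replicate 1 (-2.07) was left out, and that of Slamf6 without Ets1-deficient replicate 2 (-1.24) and without either Ets1-present array. Ncr1, the receptor NKp46, read 8.69 and 8.53 in Ets1-deficient cells, against 9.67 and 9.75 in Ets1-present cells and was not called (-1.10 ± 0.38, adjusted p = 0.179).

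Among 17 inhibitory receptors, Klra5, Pdcd1 and Klrg1 were higher, and Lair1 and Klra17 were lower. Klra5, the Ly49E receptor, read 9.38 and 8.21 in Ets1-deficient cells, against 5.78 and 6.23 in Ets1-present cells (2.79 ± 0.30, adjusted p = 1.1e-05). Klra17, the Ly49Q receptor, moved the other way, with 6.57 and 6.47 in Ets1-deficient cells, against 8.39 and 8.68 in Ets1-present cells (-2.01 ± 0.30, adjusted p = 0.000449). Genes of the Ly49 family are near-identical copies, so values of single members are uncertain. Klrg1, an inhibitory receptor that appears on mature NK cells, read 9.83 and 10.18 in Ets1-deficient cells, against 8.41 and 8.12 in Ets1-present cells (1.75 ± 0.32, adjusted p = 0.00411), and its call was lost when either replicate 2 was left out, the Ets1-deficient (1.57) or the Ets1-present one (1.60). Pdcd1, which encodes PD-1, gave 2.19 ± 0.22 at low levels, 4.84 and 5.08 in Ets1-deficient and 2.70 and 2.85 in Ets1-present cells. Lair1, an inhibitory receptor for collagen, was called on 1 of 3 probe sets (-3.77 ± 0.30), and the others gave -1.09 and -0.73.

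Of 26 cytotoxic granule genes, 3 were higher and none was lower. Gzmb, the granzyme that cleaves caspases, read 11.12 and 10.60 in Ets1-deficient cells, against 8.09 and 8.29 in Ets1-present cells (2.67 ± 0.37, adjusted p = 0.000226). Gzmk, another granzyme, read 9.20 and 9.57 in Ets1-deficient cells, against 7.94 and 7.92 in Ets1-present cells (1.45 ± 0.34, adjusted p = 0.0239). Fasl, the ligand of the death receptor Fas, was higher on a dim probe set (1.16 ± 0.30) and stood at -0.26 ± 0.32 on a bright one. Prf1, which encodes perforin, read 11.86 and 11.73 in Ets1-deficient cells, against 10.54 and 10.94 in Ets1-present cells and was not called (1.06 ± 0.31, adjusted p = 0.0914). Gzmk lost its call without Ets1-deficient replicate 2 (1.27) and without either Ets1-present array (1.46 and 1.44), and Fasl without any 1 array (0.91 to 1.40). The list's median difference was 0.00.

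**Figure D2:**
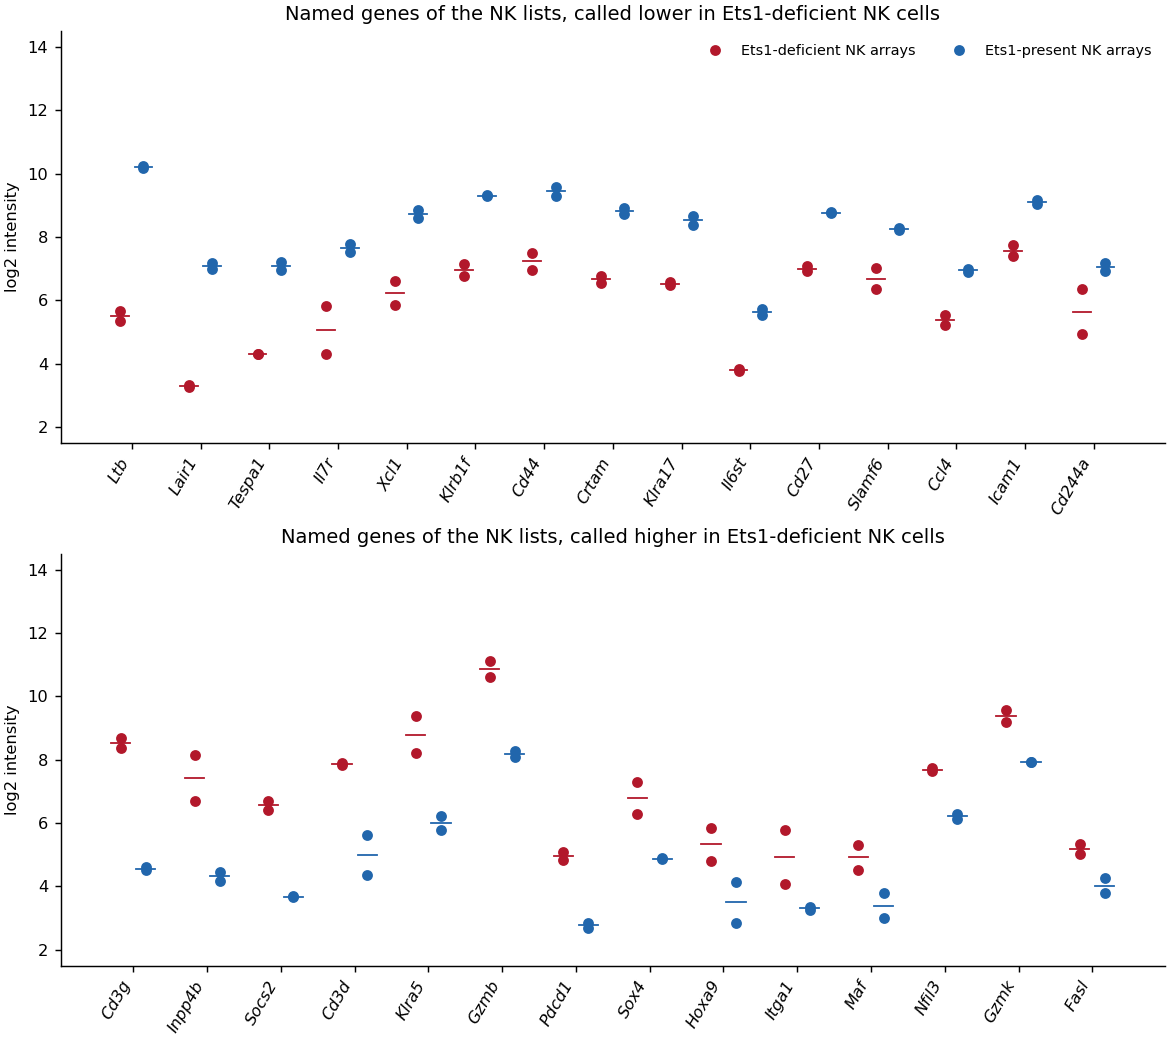
Log2 intensity on each array (points) with the mean of each genotype (lines) for the named genes of the NK lists, on the probe set with the largest called difference; Ets1-deficient in red left of Ets1-present in blue. Ltb lies under 6 on the Ets1-deficient arrays, against above 10 on the Ets1-present arrays, while Cd3g (8.69 and 8.36 against 4.51 and 4.62) and Gzmb lie on the other side. The points of the genotypes do not overlap for any gene shown, as for every called probe set.

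Of 36 cytokine receptors and signalling genes, Socs2 was higher, and Il7r and Il6st were lower, against 1.86% higher and 2.54% lower among all genes. The count of lower genes depended on the fit: it was 11 with the NK arrays alone, 10 with array weights and 8 without the CLP arrays, and it stayed at 2 when single NK arrays were left out. Il7r, the receptor chain for IL-7, read 4.31 and 5.82 in Ets1-deficient cells, against 7.53 and 7.79 in Ets1-present cells (-2.59 ± 0.44, adjusted p = 0.00175). Its second probe set, at 3.30 and 3.36 in Ets1-deficient and 3.62 and 3.46 in Ets1-present cells, was dim in both genotypes and was not called (-0.21 ± 0.49). Socs2, an inhibitor of cytokine signalling, was called on 2 of 6 probe sets (2.89 ± 0.43 and 1.92 ± 0.41), and the other 4, all dim, lay between -0.25 and 0.77. Il6st, the shared receptor chain gp130, was lower on 1 of 4 (-1.81 ± 0.30). Il2rb, the beta chain of the IL-15 receptor, read 8.85 and 9.19 in Ets1-deficient cells, against 9.50 and 9.60 in Ets1-present cells on its brighter probe set and was not called (-0.53 ± 0.27).

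Among 30 genes of trafficking, adhesion and maturation, Cd44, Cd27, Icam1 and Thy1 were lower and Itga1 was higher. Cd44, the hyaluronan receptor, read 7.51 and 6.96 in Ets1-deficient cells, against 9.30 and 9.59 in Ets1-present cells (-2.21 ± 0.27, adjusted p = 6.58e-05). Its other probe sets gave -1.21, -0.86 and 0.09, none of them called, and the last was near the bottom of the scale. Cd27, a costimulatory receptor lost as NK cells mature, read 6.93 and 7.07 in Ets1-deficient cells, against 8.78 and 8.74 in Ets1-present cells (-1.77 ± 0.33), and its call was lost without Ets1-present replicate 1 (-1.75) or 2 (-1.78). Icam1, an adhesion molecule that binds the integrin LFA-1, gave -1.53 ± 0.32 and kept its call only without Ets1-deficient replicate 2 (-1.70), and Thy1, a surface glycoprotein, lost its call without any 1 array (-1.62 to -1.39). Itga1, the integrin chain CD49a, read 5.79 and 4.07 in Ets1-deficient cells, against 3.25 and 3.36 in Ets1-present cells, and the difference of 1.63 was 0.77 without Ets1-deficient replicate 1, where the call was lost. The call of Itga1 was also lost without either Ets1-present array (1.57 and 1.69).

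Transcription factors of the NK and lymphoid lineages had calls in both directions: of 50 measured, Nfil3, Maf, Sox4 and Hoxa9 were higher, and Hhex and Tcf4 were lower. Of all genes, 1.86% were higher and 2.54% lower. Nfil3, a factor needed early in NK development, read 7.73 and 7.64 in Ets1-deficient cells, against 6.14 and 6.30 in Ets1-present cells (1.47 ± 0.32, adjusted p = 0.0129), and its call was lost without any 1 of the 4 arrays (1.39 to 1.55). Sox4 was called on 1 of 8 probe sets (1.92 ± 0.40), Maf on 1 of 6 (1.54 ± 0.33) and Hoxa9 on 1 of 2 (1.83 ± 0.39). Without single arrays 0 to 3 of the list's genes were higher and 0 to 2 lower. Tcf4, the E protein E2-2, was lower on 1 of 6 (-1.25 ± 0.29), while 2 of its brighter probe sets stood at -0.05 and 0.02. The calls of Sox4, Maf, Hoxa9 and Tcf4 were each lost without 2 or more single arrays, over ranges of 1.42 to 2.42, 1.14 to 1.94, 1.19 to 2.48 and -1.39 to -1.10. Tbx21, which encodes T-bet, gave -0.72 ± 0.29, and the 2 probe sets of Eomes gave -0.45 and -0.26, none of them called.

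Of 35 genes of antigen and NK receptor signalling, Cd3d, Cd3g, Inpp4b and Nfatc1 were higher, and Sh2b3 and Tespa1 were lower. Cd3g, a chain of the T-cell receptor complex, read 8.69 and 8.36 in Ets1-deficient cells, against 4.51 and 4.62 in Ets1-present cells (3.96 ± 0.26, adjusted p = 1.7e-08). Cd3d, another CD3 chain, read 7.89 and 7.84 in Ets1-deficient cells, against 4.37 and 5.61 in Ets1-present cells (2.88 ± 0.35, adjusted p = 5.09e-05). Cd3e, the third chain, did not follow them: it read 5.08 and 5.04 in Ets1-deficient cells, against 5.18 and 5.09 in Ets1-present cells (-0.08 ± 0.28). Inpp4b, a lipid phosphatase, gave 3.10 ± 0.44 on its brighter probe set. Tespa1, a signalling protein of thymocytes, was lower on 2 of 3 probe sets (-2.13 ± 0.30 and -2.80 ± 0.42). The call of Sh2b3, an adaptor that restrains cytokine signalling, was lost without either replicate 2 (range over the 4 fits of -1.97 to -1.51). Of the 22 genes of the T lineage list, which shares members with this one, Cd3d and Cd3g were higher, and Il7r, Tespa1, Icos and Trat1 were lower. The list's mean log2 level was 4.45 and 4.47 in Ets1-deficient cells, against 4.64 and 4.60 in Ets1-present cells.

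Of 36 interferon-stimulated genes, 6 were lower, 30 were not called and none was higher, and 35 of the list's 54 probe sets had a negative difference. The count of 6 was 1 without either Ets1-present array and 3 without either Ets1-deficient array. Slfn2, a Schlafen family gene, read 6.44 and 6.10 in Ets1-deficient cells, against 9.42 and 9.55 in Ets1-present cells (-3.22 ± 0.26, adjusted p = 2.9e-07). Rtp4, Ifit1, Zbp1, Irf9 and Xaf1 gave -1.21 to -1.50 on their called probe sets. Irf9, a DNA-binding subunit of the interferon-activated complex ISGF3, read 6.77 and 7.21 in Ets1-deficient cells, against 8.29 and 8.23 in Ets1-present cells (-1.27 ± 0.33, adjusted p = 0.0445). The median difference over the list was -0.29. Rtp4, Zbp1 and Irf9 lost their calls without any 1 array (-1.56 to -1.36, -1.44 to -1.28 and -1.49 to -1.05), Ifit1 without any but Ets1-deficient replicate 2 (-1.63 to -1.17) and Xaf1 without 3 of the 4 arrays in turn (range over the 4 of -1.60 to -0.83), while Slfn2 kept its call in each setting tried.

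Of 40 cell cycle genes, 1 was called, against 2.54% of all genes called lower. It was Ccnd3, which encodes cyclin D3, lower on 1 of 3 probe sets (-2.17 ± 0.47). That call was lost without Ets1-deficient replicate 1 (-1.60) and without either Ets1-present array. Of 18 apoptosis regulators and 17 housekeeping genes limma called none, while 8 and 2 of these genes had an unadjusted p below 0.05. Among the apoptosis regulators, Bmf, a pro-apoptotic BH3 protein, came nearest, at 1.79 ± 0.50 (adjusted p = 0.0649), and the 5 probe sets of Bcl2 lay between -1.56 and 0.69. Of 24 genes of the ETS family, Ets1 was the only one called, and its relative and neighbour Fli1 gave -0.32 ± 0.35 and -0.37 ± 0.51.

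**Figure D3:**
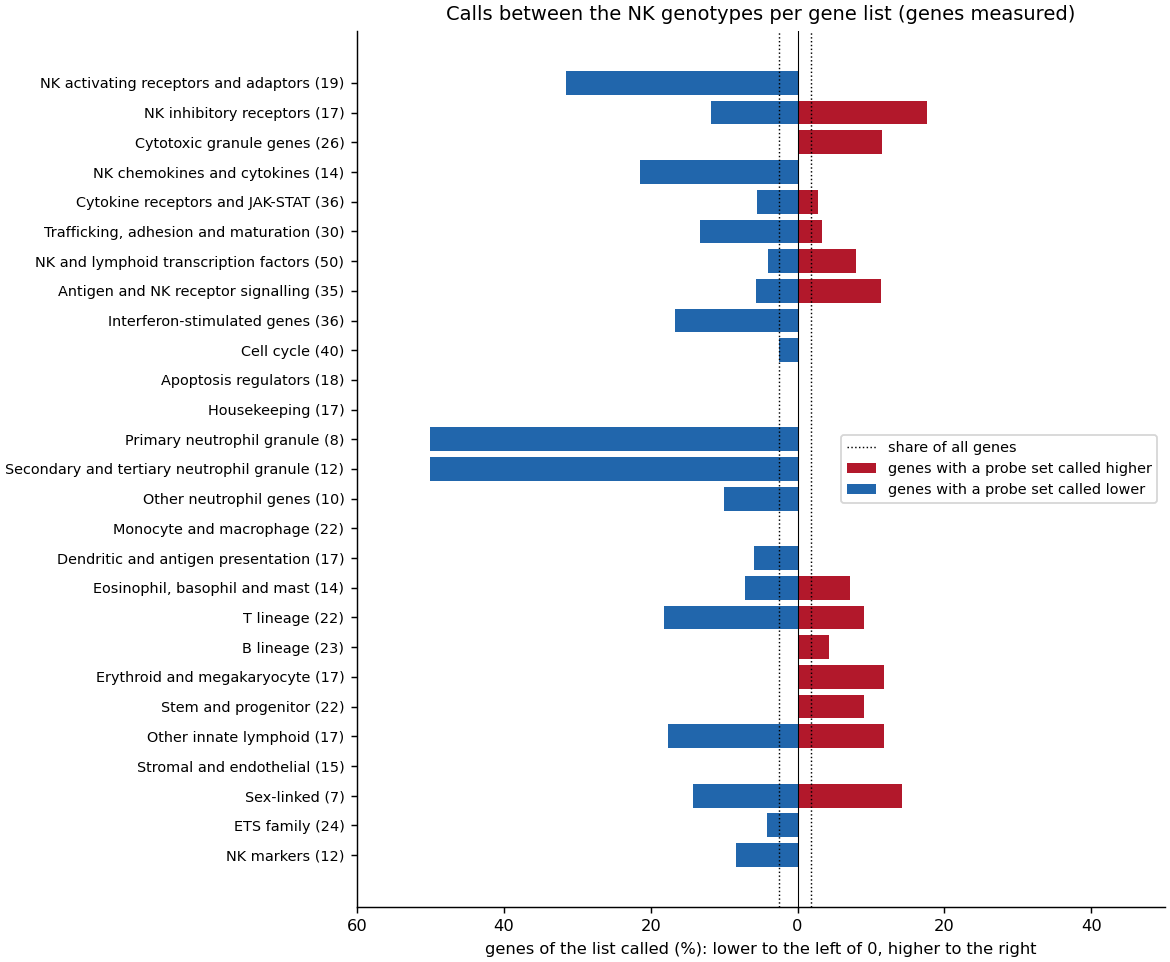
Share of the measured genes of each list (number in brackets) with a probe set called higher (red, right) or lower (blue, left) in Ets1-deficient NK cells, in percent of the list; dotted lines mark the shares of all genes, 1.86% and 2.54%. The neutrophil granule lists and the activating receptors reach furthest to the left, and no list lies wholly to the right except cytotoxic granule, B lineage, erythroid and stem genes.

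Of 20 genes of neutrophil granules, 10 were lower and none was higher. Of the 8 primary granule genes, 4 were lower, Mpo, Prtn3, Ctsg and Elane, and all 10 probe sets of the list had a negative difference (median -1.14). Mpo, myeloperoxidase, read 5.40 and 3.84 in Ets1-deficient cells, against 8.16 and 8.26 in Ets1-present cells (-3.59 ± 0.41, adjusted p = 2.2e-05). Prtn3, proteinase 3, read 5.68 and 4.30 in Ets1-deficient cells, against 7.36 and 7.31 in Ets1-present cells (-2.35 ± 0.37, adjusted p = 0.00103). Ctsg, cathepsin G, and Elane, neutrophil elastase, gave -2.45 ± 0.48 and -1.33 ± 0.34. In GMP, where these enzymes are made, Mpo stood at 13.89, Prtn3 at 12.73 and Ctsg at 12.58, far above all 4 NK arrays. Lyz1 and Lyz2, the lysozymes, which are near-identical, Fcnb and Ms4a3 were not called, and Ms4a3, at 11.23 in GMP, was 3.98 and 4.19 in Ets1-deficient and 3.70 and 4.49 in Ets1-present cells.

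Of 12 secondary and tertiary granule genes, 6 were lower: Ltf, Lcn2, Cd177, Pglyrp1, Mmp9 and Cybb. Cybb counts through a dim probe set, at 2.82 and 2.75 in Ets1-deficient cells, against 4.10 and 3.66 in Ets1-present cells. Its brighter probe set gave -1.66 ± 0.46 (limma adjusted p = 0.0664) and another gave 0.06 ± 0.28, neither of them called. Ltf, lactoferrin, read 8.14 and 7.05 in Ets1-deficient cells, against 9.51 and 9.56 in Ets1-present cells (-1.94 ± 0.33, adjusted p = 0.00175). Lcn2, the iron-binding protein lipocalin 2, read 8.83 and 7.55 in Ets1-deficient cells, against 9.75 and 9.82 in Ets1-present cells (-1.60 ± 0.36, adjusted p = 0.0175). Pglyrp1, a peptidoglycan recognition protein, gave -1.37 ± 0.24, and 13 of the 15 probe sets of the list had a negative difference (median -1.11). Ngp and Camp, bright granule genes of the same stage, gave -1.37 ± 0.51 and -1.39 ± 0.44 and were not called. Chil3 (-1.01), Hp (-0.78), Mmp8 (-0.36) and Cyba (0.24) were not called either, and neither were S100a8 (-1.47) and S100a9 (-1.35), calcium-binding proteins of neutrophil cytoplasm. Unlike the primary granule genes, Ltf (5.47) and Lcn2 (5.63) were lower in GMP than on any of the NK arrays.

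The 2 Ets1-deficient arrays did not carry the same amount of granule signal. Summed over the primary granule probe sets, the intensity was 2914 and 1771 in Ets1-deficient cells, against 5004 and 5148 in Ets1-present cells. Over the secondary and tertiary list it was 4863 and 3237 in Ets1-deficient cells, against 8015 and 8529 in Ets1-present cells. Ets1-deficient replicate 2, the array with the larger actin 3' excess, read lower than replicate 1 on 21 of the 25 granule probe sets (84%), against 49.9% of all probe sets. The root-mean-square SD of granule probe sets was 0.629 in Ets1-deficient and 0.211 in Ets1-present cells (n = 2 each). No granule probe set was at 0 on any array, and the part of sorted neutrophils or of RNA quality in these differences was not tested.

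How many of these 10 granule genes were called differed between fits. Fewer were called without Ets1-deficient replicate 2 or without either Ets1-present array, but not without Ets1-deficient replicate 1. Such fits leave 1 array in a genotype and called fewer lower probe sets throughout, so a lost call does not show that a difference rested on that array. Without Ets1-deficient replicate 2, Mpo, Prtn3, Ltf and Pglyrp1 kept their calls, and the differences of the other 6 were smaller for Cd177 (-0.92), Lcn2 (-0.96), Ctsg (-1.68), Mmp9 (-0.73) and Elane (-1.09) and alike for Cybb (-1.07). All 10 stayed negative without any 1 of the 4 arrays, which was fixed in advance, since the genotypes did not overlap on these called probe sets.

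**Figure D4:**
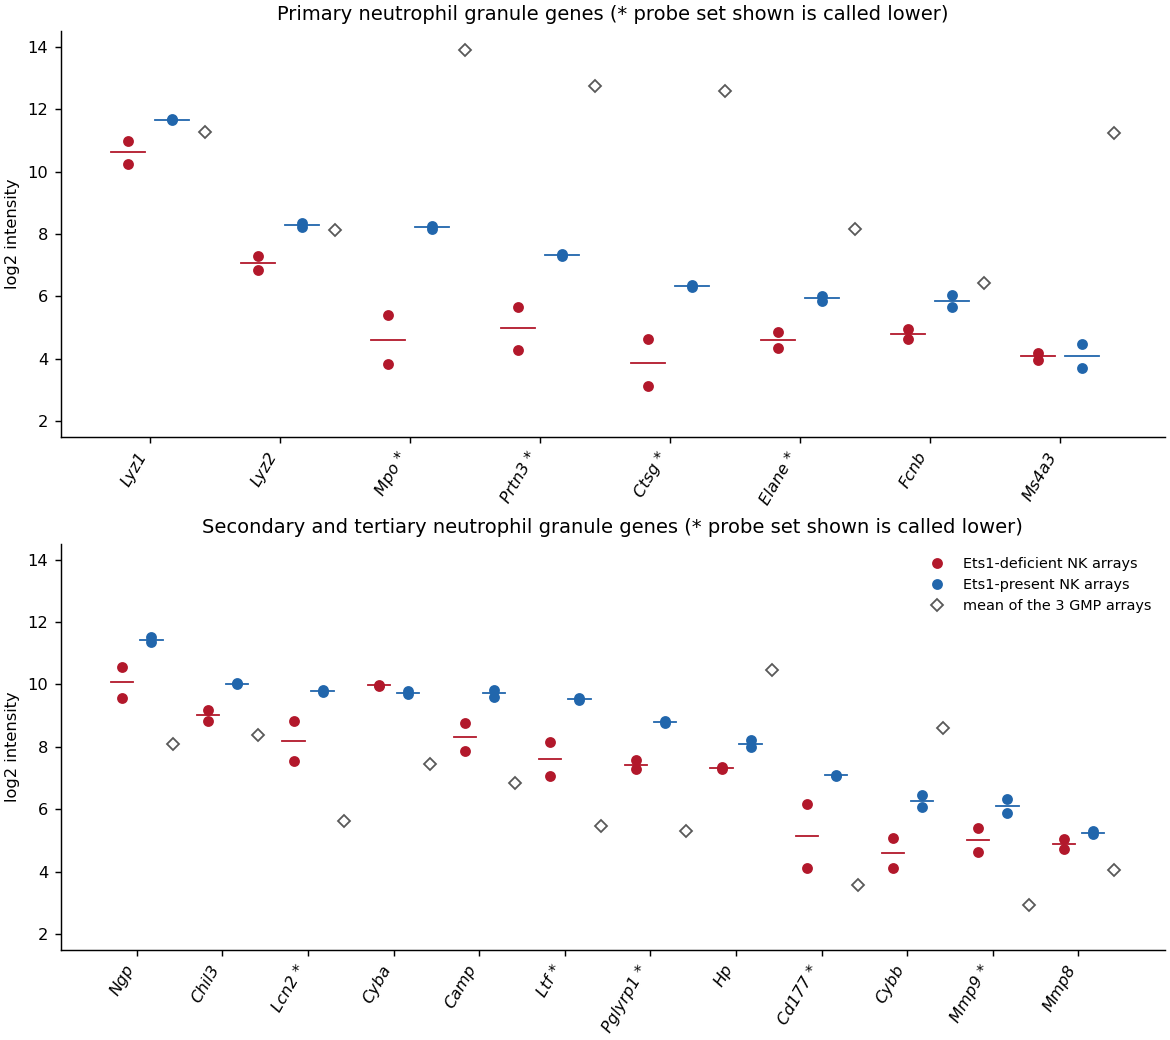
Log2 intensity of neutrophil granule genes on each NK array (points) with genotype means (lines), Ets1-deficient in red left of Ets1-present in blue, and the mean of the 3 GMP arrays as open diamonds; 1 probe set a gene, the one with the highest Ets1-present mean, with an asterisk where it was called lower. For Mpo the Ets1-deficient points lie apart (5.40 and 3.84) and the Ets1-present points close together (8.16 and 8.26), for Ms4a3 the reverse (3.98 and 4.19 against 3.70 and 4.49), and GMP lies far above the NK arrays for Mpo, Prtn3 and Ctsg but below them for Ltf and Lcn2.

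Other neutrophil genes were lower in summed intensity as well, at 3221 and 2082 in Ets1-deficient cells, against 6306 and 6180 in Ets1-present cells, but 1 of 10 was called, Wfdc21 (-1.16 ± 0.29), and that call was lost without 3 of the 4 arrays in turn (-1.50 to -0.81). Lists of other cell types held calls too, to be read beside 1.86% of all genes called higher and 2.54% called lower. No test compared the lists. Of 22 monocyte and macrophage genes limma called none (5 had an unadjusted p below 0.05), with C1qb nearest at -0.99 ± 0.28 (adjusted p = 0.0705), and their mean log2 level was 3.96 and 3.99 in Ets1-deficient cells, against 4.05 and 4.12 in Ets1-present cells. Of 14 genes of eosinophils, basophils and mast cells, Cpa3, a mast cell protease, was higher (1.88 ± 0.31) and Hdc, which makes histamine, was lower (-1.78 ± 0.39). The call of Hdc was lost without Ets1-deficient replicate 2 (-1.30) and without either Ets1-present array (-1.68 and -1.89). Of 23 B lineage genes 1 was higher, Pou2af1, on 3.99 and 6.10 in Ets1-deficient cells, against 2.44 and 2.83 in Ets1-present cells, and without Ets1-deficient replicate 2 the difference of 2.41 was 1.36 and not called. Of 17 erythroid and megakaryocyte genes, Tfrc and Gp1bb were higher, with the call of Tfrc lost without any 1 NK array (1.05 to 1.33). Of 17 dendritic and antigen presentation genes Tcf4 was lower, and of 15 stromal and endothelial genes none was called by limma (2 had an unadjusted p below 0.05). Of 22 stem and progenitor genes, Sox4 and Hoxa9 were higher, and of 17 genes of other innate lymphoid cells, Klrg1 and Pdcd1 were higher, and Il7r, Icos and Ltb4r1 were lower. Icos lost both of its calls without any 1 array, and Ltb4r1 lost its own in 3 of the 4 fits without 1 array (-1.73 to -0.92).

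Called probe sets were then set beside GMP levels. A probe set was put on the NK side when the mean of all 4 NK arrays exceeded GMP by at least 1 log2 unit with a call, on the GMP side when the reverse held, and in neither class otherwise. The 4 NK arrays that set the class also give the genotype difference, so a probe set can enter the NK side through one genotype alone, and the shares describe the classes and support nothing about them. Khdc1b, for example, was on the NK side through its Ets1-deficient mean of 7.19, against an Ets1-present mean of 2.31. On the NK side, 288 of 3553 probe sets were lower (8.11%) and 130 were higher (3.66%). On the GMP side, 58 of 2698 were lower (2.15%) and 74 were higher (2.74%), and in neither class 332 of 38786 were lower (0.856%) and 245 higher (0.632%). Of the 678 lower probe sets, 65 were on the GMP side or belonged to a neutrophil list and 613 were neither. All 4 called primary granule probe sets lay on the GMP side, but 5 of the 6 called secondary and tertiary ones lay on the NK side, where GMP had the lower levels. Leaving these out, 283 lower probe sets were on the NK side and in no neutrophil list. No array of mature neutrophils is among the 9 groups, so genes of mature neutrophils outside the lists could not be set apart in this way.

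**Figure D5:**
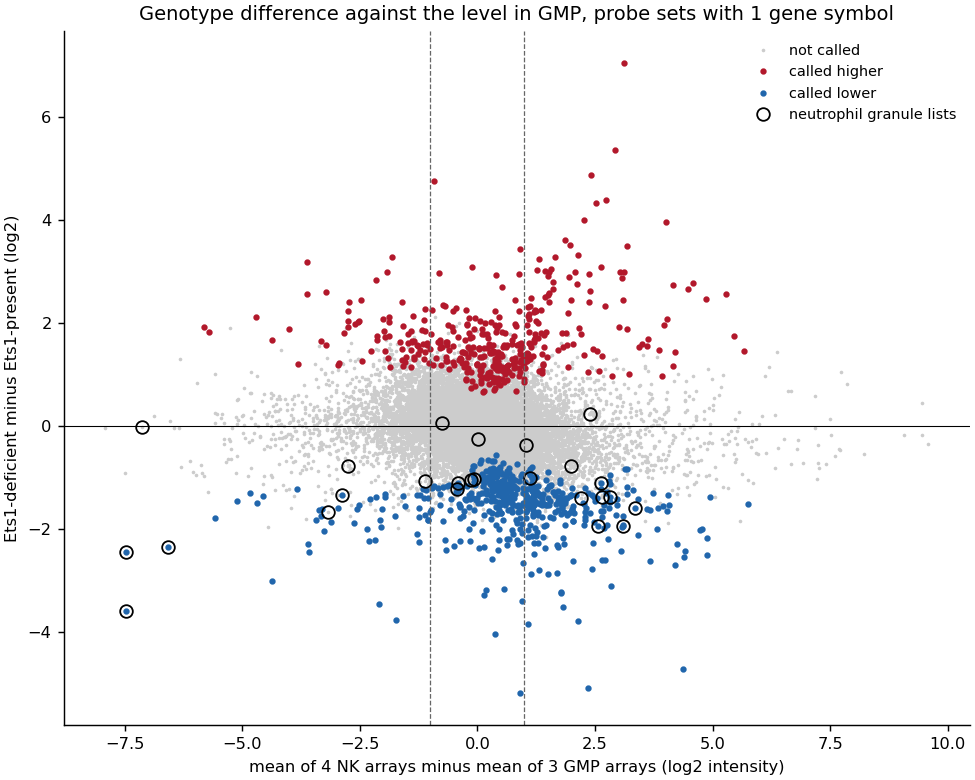
Genotype difference (log2, Ets1-deficient minus Ets1-present, vertical) against the mean of the 4 NK arrays minus the mean of the 3 GMP arrays (log2, horizontal) for each probe set with 1 gene symbol; dashed lines mark 1 log2 unit either way. Calls in both directions lie mostly in the middle and on the NK side, and the circled granule genes fall in separate places, with Mpo, Prtn3 and Ctsg far to the left and Ltf and Lcn2 to the right.

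Compared with the 7 populations other than NK cells, the lower probe sets were most often highest in CD4 T cells: 258 of 678 (38.1%), against 17.5% of all probe sets. The higher probe sets were most often highest in GMP, 118 of 449 (26.3%), against 14% of all. No NK array enters this ranking. The excess was smaller among probe sets with an NK mean of at least 6, a limit that does use the NK arrays. There CD4 T cells were highest for 52.6% of the lower probe sets, against 29.3% of all. GMP was highest for 36.2% of the higher ones, against 26.4% of all. These shares describe the probe sets and were given no test, and CD4 T cells and GMP come from another strain than the NK cells.

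The largest differences among genes with a single probe set could not be checked on a second one. In the higher direction these were Tubb2b, a beta-tubulin, with 7.80 and 7.60 in Ets1-deficient cells, against 3.37 and 3.23 in Ets1-present cells (4.40 ± 0.27), Mreg (4.35 ± 0.32), Cd3g, Khdc1a and Cdhr1 (3.28 ± 0.31). In the lower direction they were Ltb, Mpo, Slfn2, Ifit1bl1 (-2.85 ± 0.40) and Dgka. Dgka, a diacylglycerol kinase of lymphocytes, read 6.91 and 6.38 in Ets1-deficient cells, against 9.34 and 9.48 in Ets1-present cells (-2.77 ± 0.37, adjusted p = 0.000145). Dixdc1 and Scel, chosen after their values were seen, show the other case: the difference of 7.06 for Dixdc1 was 1.05, 0.94 and 0.79 on its other probe sets, and that of 5.37 for Scel was -0.16 on the second.

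Promoters of called genes were searched for an ETS motif. The letters CCGGAAGT and CAGGAAGT were looked for on both strands in windows from 250 bases before to 50 bases after each transcription start, taken from RefSeq for the build GRCm38.p6, and a window counted once however many matches it held, overlapping ones included. A match was found in 52 of 486 windows of genes called lower (10.7%), in 24 of 343 of genes called higher (7%) and in 1627 of 18009 of all genes tested (9.03%). Counted by gene, a match was held by 51 of 373 lower genes with a window (13.7%), 23 of 268 higher (8.58%) and 1498 of 14368 tested (10.4%). Among named genes with a window, 6 of 38 lower and 2 of 28 higher genes held one. The windows of Il7r, Xcl1 and Fasl are shown as examples that hold CAGGAAGT, which some other named genes hold too. Il7r and Xcl1 were called lower, and Fasl was called higher on a dim probe set but not on a bright one. The window of Ltb is shown because the gene fell most among the NK lists and its window holds neither motif. Capitals mark the motif, or its reverse complement, on the strand of the gene.
Il7r, chr15:9529827-9530126, minus strand: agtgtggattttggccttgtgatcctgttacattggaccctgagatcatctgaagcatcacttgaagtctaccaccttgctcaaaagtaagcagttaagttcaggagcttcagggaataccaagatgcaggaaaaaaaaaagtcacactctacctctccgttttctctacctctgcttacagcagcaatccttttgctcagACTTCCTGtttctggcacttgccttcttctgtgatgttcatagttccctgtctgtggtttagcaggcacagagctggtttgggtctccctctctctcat
Xcl1, chr1:164935473-164935772, minus strand: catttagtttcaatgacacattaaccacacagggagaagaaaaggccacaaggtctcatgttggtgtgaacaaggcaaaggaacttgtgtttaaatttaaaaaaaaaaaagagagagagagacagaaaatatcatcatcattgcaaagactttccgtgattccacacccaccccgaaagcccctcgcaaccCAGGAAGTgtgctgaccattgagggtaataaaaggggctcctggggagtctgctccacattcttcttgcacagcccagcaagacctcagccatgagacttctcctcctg
Fasl, chr1:161788446-161788745, minus strand: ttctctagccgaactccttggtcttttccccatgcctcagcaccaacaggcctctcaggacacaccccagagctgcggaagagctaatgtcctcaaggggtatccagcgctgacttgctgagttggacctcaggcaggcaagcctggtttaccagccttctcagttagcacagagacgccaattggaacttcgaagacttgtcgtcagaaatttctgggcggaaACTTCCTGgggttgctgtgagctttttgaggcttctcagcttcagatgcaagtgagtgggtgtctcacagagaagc
Ltb, chr17:35194257-35194556, plus strand: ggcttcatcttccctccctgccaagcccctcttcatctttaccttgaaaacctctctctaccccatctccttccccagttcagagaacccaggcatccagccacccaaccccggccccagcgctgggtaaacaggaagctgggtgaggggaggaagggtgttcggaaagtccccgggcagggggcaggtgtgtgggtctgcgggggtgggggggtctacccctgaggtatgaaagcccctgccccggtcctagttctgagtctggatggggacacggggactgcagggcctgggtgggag
The match begins 49 bases before the start in Il7r, 59 in Xcl1 and 26 in Fasl, on the reverse strand in Il7r and Fasl and on the forward strand in Xcl1. A match is a stretch of letters and not a site shown to be bound, and the absence of one in the Ltb window says only that these letters are not in it.

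The genes around Ets1 were examined by their order in the RefSeq annotation, since a deletion made in one strain can carry neighbouring sequence of another. Of the 50 tested genes nearest to Ets1, 25 on each side, none was higher and 1, Snx19, was lower. Fli1 and 7630403G23Rik, next to Ets1, were not called. On chromosome 9, which holds Ets1, 19 of 1002 genes were higher (1.9%) and 37 were lower (3.69%), against 1.86% and 2.54% of all genes. Chromosome 1 had the same share of lower genes (3.69%) and chromosome 16 a larger one (4.05%). The call of Snx19 was lost without 3 of the 4 arrays in turn (-1.37 to -0.92).

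Of 7 sex-linked genes, 1 was higher, 1 was lower and 5 were not called. On chromosome X, 13 of 617 genes were higher (2.11%) and 7 were lower (1.13%), against 1.86% and 2.54% of all genes. Uty, on the Y chromosome, read 3.38 and 3.30 in Ets1-deficient cells, against 4.63 and 5.67 in Ets1-present cells on 1 of 4 probe sets (-1.81 ± 0.28, adjusted p = 0.00089), and Eif2s3x, on the X chromosome, was higher on 1 of 3 (1.55 ± 0.36), a call lost without any 1 NK array (1.45 to 1.65). Xist, the RNA of the inactive X chromosome, read 11.08 and 10.53 in Ets1-deficient cells, against 9.80 and 10.17 in Ets1-present cells, and the Y-linked Eif2s3y read 7.82 and 7.56 in Ets1-deficient cells, against 8.74 and 8.51 in Ets1-present cells, neither of them called. Xist and Eif2s3y were thus both read on each of the 4 arrays, and the part of sex in the other differences was not tested.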

How the data were processed

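The authors deposited linear intensities, 1 for each probe set on each array, which were made with RMA, per the submitters' processing notes. The RMA version was not given in the sources. The design had assumed log2 values, so log2 was taken first. After 64 control probe sets were left out, all 45037 probe sets were tested with no filter. Of these, 34945 have 1 gene symbol in the platform annotation, 932 several and 9160 none here, and 34741 of the single-symbol ones matched a RefSeq gene table (GRCm38.p6) by Entrez ID.

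limma 3.58.1 in R 4.3.3 (lmFit, eBayes with an intensity trend) was fitted over 20 arrays and 9 groups (11 residual degrees of freedom), with Benjamini-Hochberg adjustment over all probe sets. The number of arrays limits the precision, and since nothing says that replicates came from separate animals, a p-value reflects only how these samples vary, which may be technical. The method was tested on simulated data.

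The members and the 27 gene lists were chosen with earlier results of these data known. Named were Ets1, up to 10 genes per direction with every probe set called, 5 per direction with 1 probe set, genes called both ways, 5 whose brightest probe set was not called, up to 4 called genes of each list (the 2 largest where none was called), all granule and NK marker genes and the neighbours of Ets1. Ccl5, Ccr1, Cd160, Cd3e, Dixdc1, Dsp, Eif2s3y, Fcgr3, Fes, Hhex, Ifng, Irf9, Ltb4r1, Nfatc1, Orai1, Pbxip1, Plxnc1, Rtn4rl1, S100a8, S100a9, Scel, Septin4, Sh2b3, Snx19, Thy1, Trat1, Xaf1 and Xist were named outside this rule, after their values were seen. Some list members were not analysed here. Alternatives covered filters, summaries of probe sets, normalization, the arrays fitted, weights, a replicate block, thresholds and leaving out arrays.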

Additional observations from a re-analysis of the deposited data

How the results depend on the processing

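Called probe sets were 449 higher and 678 lower, with 13 genes higher and 16 lower on every probe set and 10 granule genes lower. In that order the counts were 746 higher, 22 genes higher and 35 lower with the NK arrays alone, and 1378, 1827, 36, 53 and 16 with array weights. Centring on housekeeping genes gave 259, 312, 6, 10 and 6, and leaving out the CLP arrays gave 729, 1088, 22 and 31 for the first 4. With the brightest probe set per gene 210 were higher and 273 lower, with the mean per gene 228 and 340, and with a filter at 6 log2 units 206 and 343, where fewer features were tested. A filter above the array median gave 25 genes lower on every probe set, and leaving out shared probe sets gave 7 genes higher. At an adjusted p below 0.01, 225 were higher and 294 lower, with 6 genes lower on every probe set and 6 granule genes. Probe sets with an NK mean of at least 6, an alternative chosen after the data were seen, gave 80, 171, 3, 9 and 6. Leaving out single NK arrays gave 183 to 418 higher and 260 to 454 lower probe sets, 6 to 10 genes higher and 3 to 10 lower on every probe set, and 4 to 10 granule genes. Except where shown by construction, the cause was not tested.

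The replicate block gave 448 higher and 661 lower probe sets, 13 and 14 genes on every probe set and 9 granule genes. Same-numbered arrays did not deviate together over all probe sets (correlation -0.0079). This single correlation cannot show whether same-numbered samples were handled together. On Ets1 probe set 1422027_a_at the call was lost with housekeeping centring (-1.55), and the difference ran from -1.90 to -1.20 without single arrays. Probe set 1422028_a_at was called with array weights (-0.93), and 1452163_at with the NK arrays alone (-0.81). Of 121 called probe sets of the other named genes, 65 kept the call in each of the 18 settings that tested them. The other 56 lost it in at least 1, most of them when an array was left out, and 0 changed sign. Not every setting tested all 121, and an untested probe set was not counted as lost. The filter at 6 log2 units tested 86, that above the array median 119, the fit without shared probe sets 95 and the limit at an NK mean of 6 tested 51. In the fits without 1 NK array the sign could not change, since no called probe set overlapped between the genotypes.

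With 2 arrays per genotype, small differences and dim probe sets are the most limited, and signal over background was not measured. No group holds 4 or more arrays, so single arrays were not tested as outliers.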

Other observations

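Some genes outside the lists also had several bright probe sets with calls of 1 sign, and they were chosen after their values were seen. Dsp, which encodes the desmosomal protein desmoplakin, read 9.59 and 9.69 in Ets1-deficient cells, against 7.57 and 7.56 in Ets1-present cells on 1 probe set (2.08 ± 0.22, adjusted p = 9.24e-06), with 2.47 ± 0.26 on another and 0.01 on a dim one. Plxnc1, a semaphorin receptor, read 6.44 and 6.97 in Ets1-deficient cells, against 9.02 and 9.13 in Ets1-present cells (-2.37 ± 0.58, adjusted p = 0.0302), with a second probe set also lower (adjusted p = 0.0455) and 4 dim ones not called. The calls of Plxnc1 were lost without at least 3 of the 4 NK arrays in turn, at differences of -2.63 to -2.10 and -2.80 to -1.20 over the 4 fits, while Dsp kept both of its calls. Nfatc1, a calcium-regulated transcription factor of lymphocytes, was higher on 2 of 5 probe sets (2.41 ± 0.28 and 1.34 ± 0.28), while its other 3 gave -0.56, -0.57 and -0.08 and were not called. The smaller of its called differences lost the call without 3 of the 4 arrays in turn (1.24 to 1.44).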
